A study of Mus musculus with 6 samples.

Results

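The genes described here are the fetal and adult isoforms of the cardiac contractile apparatus, measured by RNA sequencing in hearts of mice that lack Arrdc4 and of wild-type mice. They are 10 genes chosen by symbol: the myosin heavy chains Myh6, Myh7 and Myh7b, the striated-muscle actins Actc1 and Acta1, the tropomyosin Tpm1, and the troponin subunits Tnnt2, Tnnc1, Tnni3 and Tnni1. All 10 were found among the 49315 genes of the count table, and 9 of them were among the 14508 genes with enough reads to be tested. The knockout group was 3 hearts in which Arrdc4, an alpha-arrestin adaptor of NEDD4-type ubiquitin ligases, had been knocked out by CRISPR-Cas9, and the comparison group was 3 wild-type hearts. Both were of the C57BL/6 background, and the labels state no founder number, age, sex or chamber. The labels do not say whether the hearts of a group came from separate litters, so p-values measure only the spread between these hearts, part of which may be technical.

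The sarcomere pulls thin filaments of actin past thick filaments of myosin, and troponin and tropomyosin on the thin filament switch the pull on when calcium rises. Many of these proteins come in paralogs that take over from each other around birth. In the mouse ventricle the slow beta myosin heavy chain (Myh7) gives way to the fast alpha chain (Myh6) as thyroid hormone rises, skeletal alpha-actin (Acta1) gives way to cardiac alpha-actin (Actc1), and slow skeletal troponin I (Tnni1) gives way to cardiac troponin I (Tnni3). A partial return of the fetal forms is a long-known sign of cardiac overload.

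The promoters of both paralog pairs that were expressed well enough to compare are shown because the balance within each pair is what the ratios below describe. Each window runs from 250 bases before to 50 bases after the RefSeq start site on GRCm38.p6, written 5′ to 3′ on the strand of the gene. RefSeq lists 2 start sites for Myh7; the window shown is that of the start that matches GENCODE, and the window of the other start, which lies downstream, holds no match. Capitals mark, on either strand, letters of 5 known promoter elements. The letters searched for the TATA box, a core promoter element, are TATAAA. The element that TEAD factors bind, known as MCAT, is CATTCC. The half-site of the thyroid hormone receptor is AGGTCA. The letters that GATA factors bind are AGATAA, and the CArG box, which SRF binds, was searched as a pair of C, then 6 bases that are each A or T, then a pair of G. None of the matches shown overlap each other.
Myh6, chr14:54966558-54966857, minus strand: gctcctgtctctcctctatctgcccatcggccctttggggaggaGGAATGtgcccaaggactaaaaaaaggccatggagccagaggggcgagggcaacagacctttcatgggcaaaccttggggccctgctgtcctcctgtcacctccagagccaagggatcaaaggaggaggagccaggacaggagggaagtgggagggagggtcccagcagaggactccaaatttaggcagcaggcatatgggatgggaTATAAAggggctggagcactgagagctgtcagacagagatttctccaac
Myh7, chr14:54994577-54994876, minus strand: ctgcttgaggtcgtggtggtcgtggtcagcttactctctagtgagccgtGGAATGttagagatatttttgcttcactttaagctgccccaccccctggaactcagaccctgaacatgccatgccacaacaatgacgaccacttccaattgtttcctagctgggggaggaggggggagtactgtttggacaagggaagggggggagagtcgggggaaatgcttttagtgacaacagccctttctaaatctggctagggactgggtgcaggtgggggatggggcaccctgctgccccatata
Actc1, chr2:114052826-114053125, minus strand: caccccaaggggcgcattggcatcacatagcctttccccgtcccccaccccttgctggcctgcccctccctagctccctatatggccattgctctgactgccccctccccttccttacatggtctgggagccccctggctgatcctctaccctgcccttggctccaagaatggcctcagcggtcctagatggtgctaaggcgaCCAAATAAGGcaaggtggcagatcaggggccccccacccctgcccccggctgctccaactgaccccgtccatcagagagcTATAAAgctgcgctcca
Acta1, chr8:123894726-123895025, minus strand: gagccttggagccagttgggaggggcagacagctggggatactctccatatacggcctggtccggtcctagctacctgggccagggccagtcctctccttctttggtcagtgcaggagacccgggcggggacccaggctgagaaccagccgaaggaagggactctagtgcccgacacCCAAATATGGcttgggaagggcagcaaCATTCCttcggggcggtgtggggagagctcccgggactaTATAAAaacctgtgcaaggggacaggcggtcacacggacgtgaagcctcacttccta
Both actin windows held a CArG box, with its first base at position -47 for Actc1 and -73 for Acta1, counted from the start site. Of 32851 mouse promoter windows of the same length 1.63% held one, and the other 8 members had none in any window. CATTCC lay in windows of 6 of the 10 members (Acta1, Myh6, Myh7, Tnnc1, Tnnt2 and Tpm1) and in 14.7% of all windows, and TATAAA in 3 of the 10 (Acta1, Actc1 and Myh6) and in 13.6%. AGGTCA was found for Myh7b only among the members, in 16.3% of all windows, and AGATAA for Myh7b and Tnnt2, in 11.2%. Counted from the same start site, the first base of TATAAA lay at 2 for Myh6, 34 for Actc1 and -7 for Acta1. In bases downstream of the GENCODE gene start, that RefSeq start lay at 320 for Myh6, 673 for Actc1 and -24 for Acta1. All positions depend on the start site used. The matches are letters in a window and say nothing of binding.

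Depth ran from 31529317 to 41036626 counts in knockout libraries and from 29974501 to 37518160 in wild-type libraries. Arrdc4 itself had 5, 1 and 2 reads in knockout hearts 1 to 3, against 349, 307 and 281 in wild-type hearts 1 to 3 (log2 fold change -6.93, adjusted p = 0.0023, edgeR). Knockout heart 2 and wild-type heart 3 stood apart from the other 4. The deviation of log2 CPM from the mean of 6 hearts fell with exon length in these libraries, with slopes of -0.14 and -0.15 per doubling. The other slopes were 0.09 and 0.10 in knockout hearts 1 and 3 and 0.01 and 0.09 in wild-type hearts 1 and 2. Such slopes compare libraries with each other and do not show which of them is off. The unit CPM used here is the count divided by the TMM-scaled size of its library. Ventricular light chains were abundant in every heart, and most markers of atrial muscle were near the floor. The atrial regulatory light chain Myl7 had 40, 3 and 13 reads in knockout hearts and 9, 0 and 6 in wild-type hearts, and Sln, Bmp10 and Mybphl were 3 of the 7 atrial markers too low to test, while Sbk2 had 138 to 192 reads in knockout hearts and 209 to 255 in wild-type hearts and Nppa stood at 58.2 to 123 CPM in knockout hearts and 81.7 to 127 CPM in wild-type hearts. Of the skeletal muscle markers 7 of 11 were too low to test, with Myh4, a fast skeletal myosin, at 0 reads in every library.

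No member of the contractile group passed the test in either direction. Of the 9 tested, 5 had higher and 4 lower fitted values in knockout hearts, and their median log2 fold change was 0.03, against 0.01 over all tested genes. The share of all genes called was 0.00689%, which is Arrdc4 alone, and 0 members had an unadjusted p under 0.05 in edgeR's quasi-likelihood test, where 1.23% of all genes had one. DESeq2 and limma-voom also called 0 members. In 0 of the 9 did the knockout values lie wholly outside the wild-type values, where 4.07% of all tested genes did, 2.18% higher and 1.9% lower in knockout. In the main fit the 95% interval excluded a 2-fold difference either way for 7 of the 9, and a 1.5-fold difference for 3 of them, Actc1, Tnnt2 and Tpm1. Among the 7, Myh7 came closest to a 2-fold difference, with an upper limit of 0.97 in log2. Intervals from other settings are not given here. A 2-fold difference was not excluded for Myh6 and Acta1, the members that varied most between hearts of 1 genotype.

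**Figure D1:**
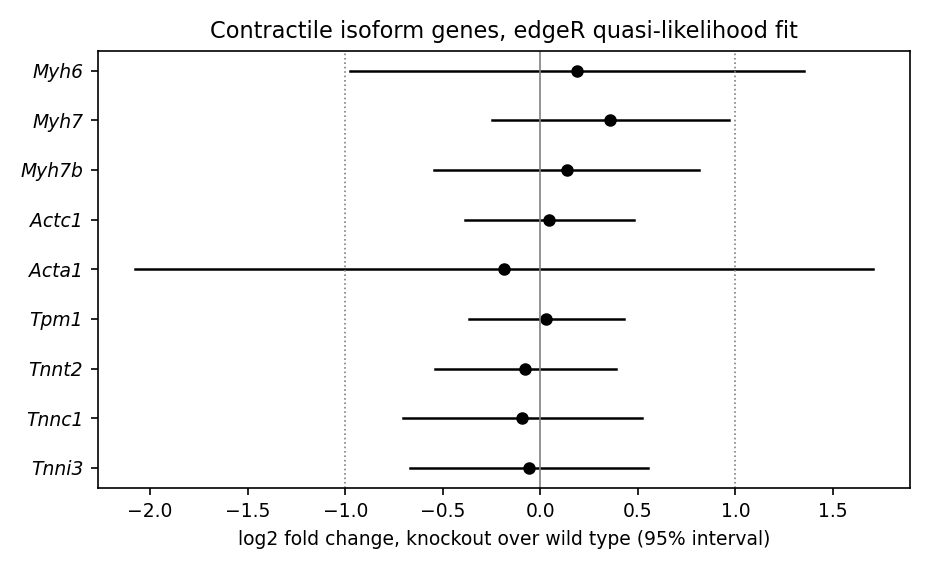
Log2 fold change, knockout over wild type, of the 9 tested contractile genes, with 95% intervals from the edgeR fit; dotted lines mark a 2-fold difference either way. Each interval crosses 0, and those of Myh6 (-0.97 to 1.35) and Acta1 (-2.08 to 1.70) reach past a 2-fold line.

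The alpha myosin heavy chain Myh6, the fast motor of the adult mouse heart, lies on chromosome 14 (ENSMUSG00000040752, GRCm38, 54941921 to 54966927, minus strand) and has 39 exons in its longest coding transcript. It stood at 22899.5, 9167 and 29523 CPM in knockout hearts 1 to 3, against 17169, 26859 and 10042 CPM in wild-type hearts 1 to 3. The lowest hearts were knockout 2 and wild-type 3, 1 of each genotype, and the groups overlapped. The means were 20529.7 ± 10383 CPM in knockout and 18023 ± 8441 CPM in wild type (SD, n = 3 each), and the log2 fold change was 0.19 (SE 0.50, 95% interval -0.97 to 1.35, adjusted p = 1, edgeR). Its direction turned to -0.17 without knockout heart 3 and to -0.10 without wild-type heart 3. Highest over lowest heart was 3.22 for Myh6, a larger ratio than in 98.5% of the 7737 genes with a mean of at least 10 CPM, whose median was 1.48.

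Myh7, the slow beta chain of the fetal ventricle, lies next to Myh6 (ENSMUSG00000053093, chromosome 14, 54970684 to 54994626, minus strand). It stood at 118, 62.7 and 126 CPM in knockout hearts and at 74.9, 85.1 and 79.2 CPM in wild-type hearts. Knockout hearts 1 and 3 were above the wild-type hearts and knockout heart 2 was below them. The log2 fold change was 0.36 (SE 0.26, 95% interval -0.25 to 0.97, adjusted p = 1, edgeR). It was 0.18 without knockout heart 3, and 0.60 without knockout heart 2 and wild-type heart 3. Myh7b, a slow myosin of low level in heart (ENSMUSG00000074652, chromosome 2, 155611212 to 155634307, plus strand), stood at 12.03, 20.5 and 27.2 CPM in knockout hearts and at 21.3, 16.6 and 16.4 CPM in wild-type hearts, with a log2 fold change of 0.13 (SE 0.29). The knockout values spanned the wild-type values on both sides.

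**Figure D2:**
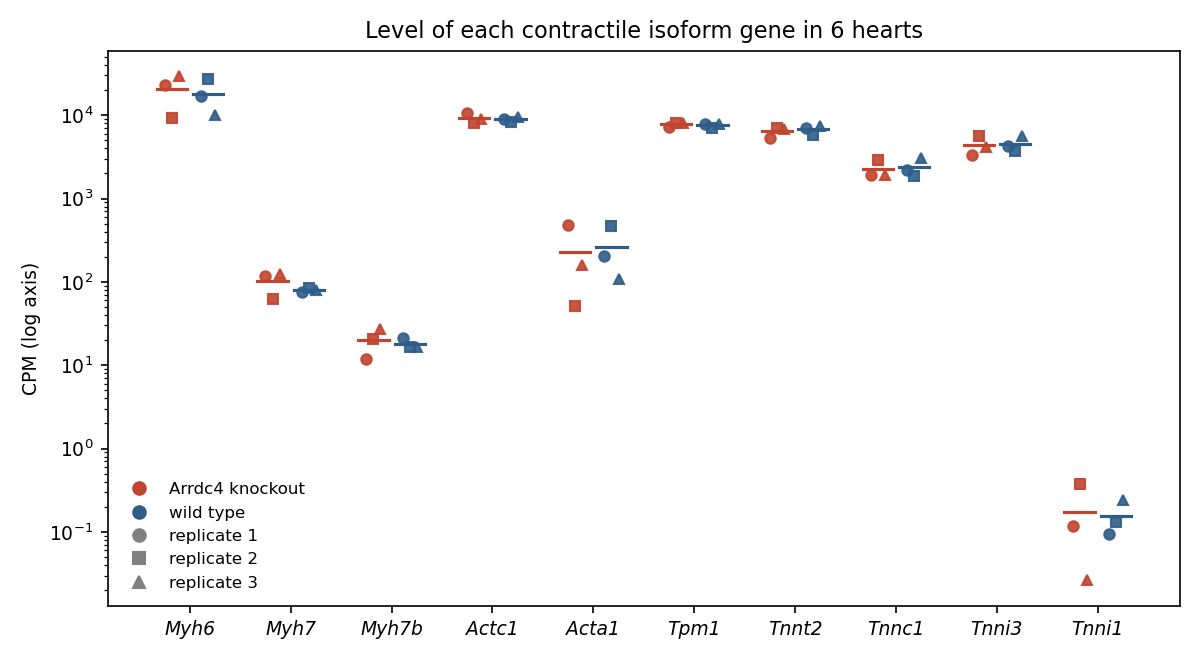
CPM of the 10 contractile genes (log axis) in the 3 knockout hearts (red) and 3 wild-type hearts (blue), with marker shape giving the replicate number and lines the group means. Myh6, Actc1, Tpm1, Tnnt2, Tnnc1 and Tnni3 sit at 1883 CPM or more in every heart. Myh7 lies between 62.7 and 126 CPM, Acta1 between 51.1 and 477 CPM, and Tnni1 between 0.0262 and 0.379 CPM.

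Within each library the fetal myosin was a small fraction of the adult one. Per kilobase of exon, Myh7 was 0.402%, 0.534% and 0.333% of Myh6 in knockout hearts 1 to 3, and 0.341%, 0.247% and 0.615% in wild-type hearts 1 to 3. The highest values came from knockout heart 2 and wild-type heart 3, the hearts with the lowest Myh6. The means were 0.423% ± 0.102 in knockout and 0.401% ± 0.191 in wild type (SD, n = 3 each), and the log2 ratio differed by 0.15 (exact permutation test, two-sided, p = 0.80, adjusted over 9 ratios p = 1). With 3 hearts against 3 this test cannot give a p below 0.1. Myh7b was 13.3%, 42.5% and 28.0% of Myh7 in knockout hearts and 36.9%, 25.4% and 27.0% in wild-type hearts, and it was 0.0533% to 0.227% of Myh6 in knockout hearts and 0.0627% to 0.166% in wild-type hearts. The exact p was 0.90 for the first ratio and 1 for the other.

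Reads of Myh6 and Myh7 can be confused because their transcripts share stretches. Of the 50-base windows in Myh7 transcripts 15.6% also occurred in Myh6 transcripts, and of the 100-base windows 7.71%, while no 50-base window was shared between Myh7b and either gene, between Acta1 and Actc1, or between Tnni1 and Tnni3. The Myh7 level, and with it the ratio, can therefore depend on how shared reads were counted, which the labels do not state. Reads moved between paralogs do not change the sum of the 3 myosins, though reads left out of the count would. That sum was 20652 ± 10418 CPM in knockout and 18121 ± 8444 CPM in wild type (SD, n = 3 each; exact permutation p = 0.80, adjusted over 3 sums p = 0.90). Nearly all of it was Myh6, with means of 20530 CPM in knockout and 18023 CPM in wild type, so it cannot check the Myh7 level. Exons of Myh7 also overlap 484 bases of Mhrt, an antisense RNA of the locus that binds the chromatin remodeller Brg1, and 142 bases of the antisense Gm29015, while 37 exon bases of Myh7b lie in Trpc4ap and 86 of Tnni3 in Dnaaf3. Mhrt had 1112, 1116 and 1038 reads in knockout hearts and 879, 1041 and 1263 in wild-type hearts, with a log2 fold change of -0.03 (SE 0.21).

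The myosin genes carry microRNAs in their introns, Mir208a in Myh6, Mir208b in Myh7 and Mir499 in Myh7b, known together as myomiRs that influence slow myosin expression. The mature forms are shown from RefSeq (GRCm38.p6) with the seed, bases 2 to 8, in capitals, because their near-identical seeds are the reason these hosts are described together.
mmu-miR-208a-3p, chr14:54949072-54949093, minus strand: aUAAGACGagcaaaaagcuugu
mmu-miR-208b-3p, chr14:54975710-54975731, minus strand: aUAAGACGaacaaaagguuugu
mmu-miR-499-5p, chr2:155622893-155622913, plus strand: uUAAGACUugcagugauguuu
The seed was the same in miR-208a-3p and miR-208b-3p. Reads over the precursor of miR-208b numbered 49, 82 and 75 in knockout hearts and 70, 47 and 93 in wild-type hearts. Reads over that of miR-208a numbered 5, 1 and 1 in knockout hearts and 5, 1 and 4 in wild-type hearts, and Mir499 had 0 in every library. These counts come from long-RNA libraries and are not levels of the mature microRNAs.

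Of the actins, the adult form was steady between hearts and the fetal form was the most variable tested member. Cardiac alpha-actin Actc1 (ENSMUSG00000068614, chromosome 2, 114047282 to 114053548, minus strand) stood at 10504, 8161 and 8933 CPM in knockout hearts and at 9109.75, 8184 and 9453 CPM in wild-type hearts, with a log2 fold change of 0.05 (SE 0.18). Its highest heart was 1.29 times its lowest. Skeletal alpha-actin Acta1 (ENSMUSG00000031972, chromosome 8, 123891769 to 123894751, minus strand) stood at 477, 51.1 and 159 CPM in knockout hearts, against 205, 471 and 107 CPM in wild-type hearts. Knockout heart 1 and wild-type heart 2 were high to nearly the same level, and knockout heart 2 and wild-type heart 3 were low. The log2 fold change was -0.19 (SE 0.81, 95% interval -2.08 to 1.70, adjusted p = 1, edgeR), and it was -1.31 without knockout heart 1, 0.28 without knockout heart 2 and 0.55 without wild-type heart 2.

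Acta1 was 4.78%, 0.659% and 1.87% of Actc1 per kilobase of exon in knockout hearts 1 to 3, and 2.37%, 6.06% and 1.19% in wild-type hearts 1 to 3. Each genotype had 1 heart far above its other hearts, knockout 1 and wild-type 2. The means were 2.44% ± 2.12 in knockout and 3.21% ± 2.54 in wild type (SD, n = 3 each; exact permutation p = 0.70, adjusted p = 1). The sum of both actins was 9428 ± 1414 CPM in knockout and 9176 ± 468 CPM in wild type (SD, n = 3 each; exact permutation p = 0.90). Actc1 made up most of it, with means of 9199 CPM in knockout and 8916 CPM in wild type. The sum therefore follows Actc1 and shows little of Acta1. Skeletal muscle markers, most of whose reads were Myl1, summed to 43.3, 47.2 and 33.5 CPM in knockout hearts and 31.1, 39.4 and 32.2 CPM in wild-type hearts. Their highest value came from knockout 2, the heart lowest in Acta1, and the next from knockout 1 and wild-type 2, the hearts highest in Acta1, and their part in the Acta1 values was not tested.

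**Figure D3:**
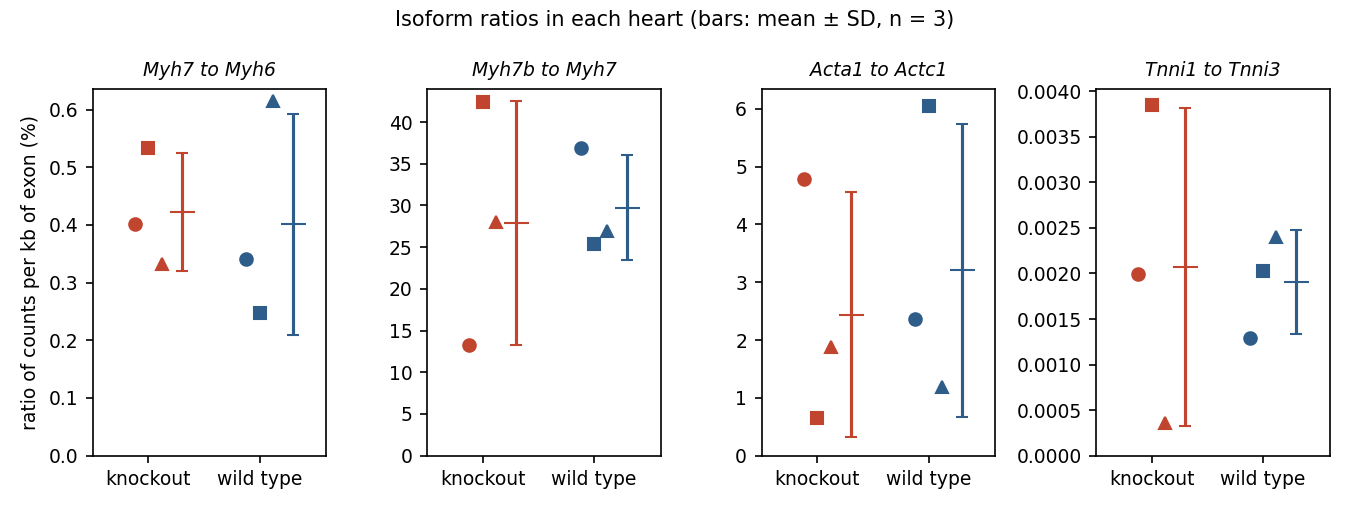
Ratio of counts per kilobase of exon, in percent on a linear axis from 0, for 4 isoform pairs in knockout (red) and wild-type (blue) hearts; marker shape gives the replicate number as in the plot of levels and bars the mean ± SD (n = 3). The genotypes overlap in each panel, from 0.247% to 0.615% for Myh7 to Myh6, 13.3% to 42.5% for Myh7b to Myh7 and 0.659% to 6.06% for Acta1 to Actc1.

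Troponin I was almost wholly of the cardiac form. Tnni3, the inhibitory subunit that carries the protein kinase A sites of the adult heart (ENSMUSG00000035458, chromosome 7, 4518305 to 4524229, minus strand), stood at 3346, 5643 and 4133 CPM in knockout hearts and at 4216, 3762 and 5693 CPM in wild-type hearts, with a log2 fold change of -0.06 (SE 0.26). Tnni1, the fetal and slow skeletal form (ENSMUSG00000026418, chromosome 1, 135779434 to 135810989, plus strand), had 5, 11 and 1 reads in knockout hearts and 3, 5 and 8 reads in wild-type hearts, too few to enter the test. Per kilobase of exon it was 0.00200%, 0.00385% and 0.000363% of Tnni3 in knockout hearts and 0.00129%, 0.00203% and 0.00240% in wild-type hearts. The 95% exact binomial intervals, which cover counting error only, ran from 9.19e-06% to 0.00202% for the lowest heart, knockout 3, and from 0.00192% to 0.00689% for the highest, knockout 2. Differences between single hearts were not tested. The exact permutation p between genotypes was 0.80, adjusted over 9 ratios 1.

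The remaining thin filament members had group means close to each other. Cardiac troponin T Tnnt2, which anchors troponin to tropomyosin (ENSMUSG00000026414, chromosome 1, 135836354 to 135852260, plus strand), stood at 5302, 7086 and 6801 CPM in knockout hearts and at 7067, 5845 and 7349 CPM in wild-type hearts, with a log2 fold change of -0.08 (SE 0.20). Troponin C Tnnc1, the calcium sensor (ENSMUSG00000091898, chromosome 14, 31208312 to 31211729, plus strand), stood at 1939, 2882 and 1892 CPM in knockout hearts and at 2181, 1883 and 3091 CPM in wild-type hearts, with a log2 fold change of -0.09 (SE 0.26). Its high hearts were knockout 2 and wild-type 3, as for Tnni3. Alpha-tropomyosin Tpm1, which lies along actin and blocks myosin at rest (ENSMUSG00000032366, chromosome 9, 67022590 to 67049406, minus strand), stood at 7138, 8103 and 7947 CPM in knockout hearts and at 7925, 6954 and 7822 CPM in wild-type hearts. Its log2 fold change was 0.03 (SE 0.17), and with a highest-to-lowest ratio of 1.17 only 8.21% of the 7737 genes of at least 10 CPM varied less.

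Set side by side per kilobase of the longest coding transcript, the members fell into a high set and a low set. Over all 6 hearts Actc1 averaged 6149 CPM per kb, Tnnt2 5479, Tnni3 4897, Tnnc1 3205, Myh6 3153 and Tpm1 2646, and each of these overlapped its neighbour in the order. Below them Acta1 averaged 169 CPM per kb, Myh7 14.6, Myh7b 3.08 and Tnni1 0.143, and from Tpm1 downward no range overlapped the next. With all annotated exons as the length, which adds retained introns, Tnnt2 averaged 848 and Tpm1 1179 CPM per kb. The order within the high set therefore depends on the length used.

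Several members were low and others high in the same 2 hearts. In knockout heart 2 and wild-type heart 3, Myh6 was below its mean of 6 hearts by a log2 CPM difference of -0.93 and -0.80, and Acta1 by -1.86 and -0.79, while Tnnc1 was above it by 0.35 and 0.45 and Tnni3 by 0.37 and 0.38. Of the 3 members with a coding transcript of at least 4000 bases, Myh6 and Myh7 were below their mean in both hearts and Myh7b was not, where 69.0% of 4664 tested genes of that length were below it in both. Of the 5 tested members under 2000 bases, 3 were above their mean in both hearts, Tnnt2, Tnni3 and Tnnc1, where 69.2% of 3170 genes were. The members' shares are near those of all genes of their length. Acta1, of 1446 bases, went against the length order and was below its mean in both hearts, where 11.9% of tested genes under 2000 bases were. Ttn, Ryr2, Mybpc3, Myl2 and Myl3, shown beside the members in the heat map, were chosen after their values were seen and are not counted. Titin, the giant spring of the sarcomere, stood at 2308, 839 and 3235 CPM in knockout hearts and at 879, 2645 and 788 CPM in wild-type hearts. With each library's length trend taken out of the fit the log2 fold change of Myh6 was 0.12 and that of Myh7 0.26. Fibroblast markers summed to 1241, 419 and 875 CPM in knockout hearts and to 555, 758 and 503 CPM in wild-type hearts and were lowest in the same pair of hearts. Endothelial markers (287 and 303 CPM), leukocyte markers (45.1 and 53.3 CPM) and epicardial markers (5.55 and 6.78 CPM) were also lowest in knockout heart 2 and wild-type heart 3. Higher fitted values in knockout were found for 7 of 8 fibroblast genes (median log2 fold change 0.77), 6 of 6 epicardial genes (1.498) and 5 of 5 leukocyte genes (0.18). The same held for 7 of 7 smooth muscle genes (median 0.27) and 5 of 5 erythroid genes (median 0.05), but for 3 of 6 endothelial and 4 of 10 cardiomyocyte genes. Among tested genes it held for 2 of 4 atrial, 1 of 4 ventricular and 1 of 4 skeletal muscle markers. Of all tested genes 52.3% were higher, and no marker was called. The groups did not overlap for 1 fibroblast and 1 atrial marker, and overlapped for every other marker tested. Of all tested genes 4.07% did not overlap. The part of these cell types in the members' differences was not tested. In bulk RNA, fewer cells of a type and less RNA per cell cannot be told apart.

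**Figure D4:**
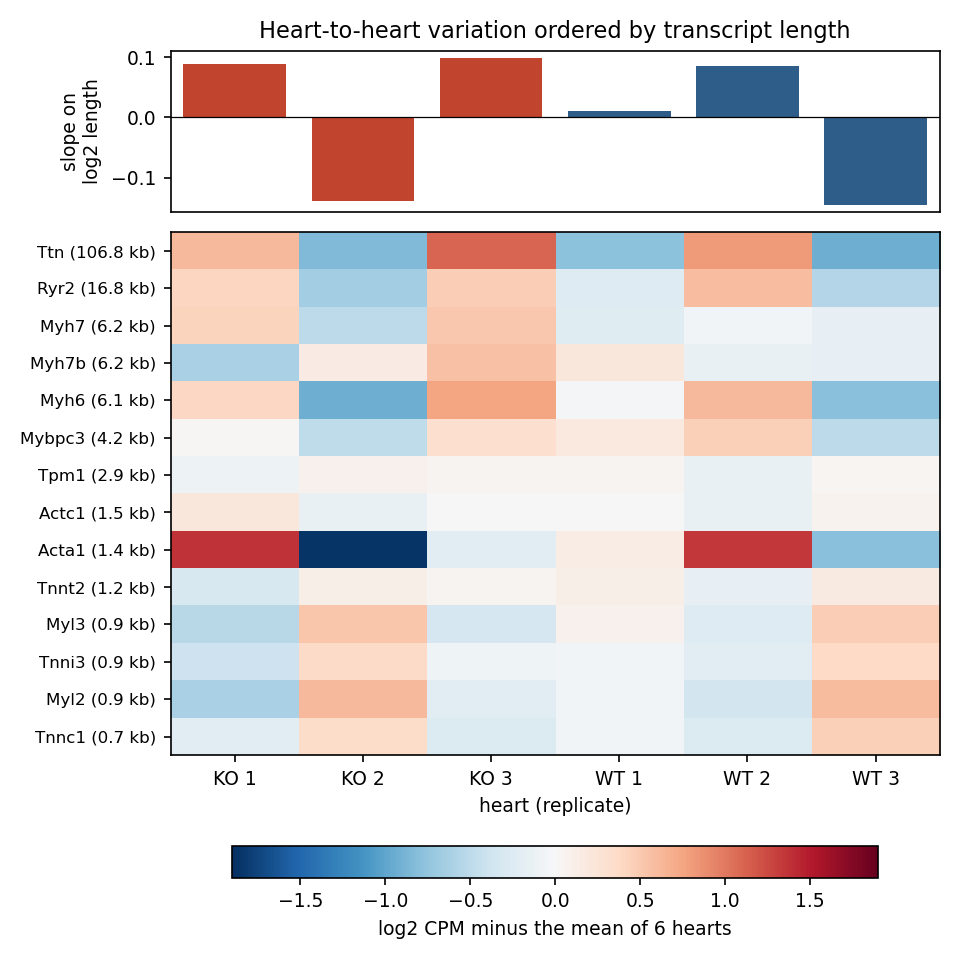
Upper panel: slope of each library's log2 CPM deviation on log2 exon length, knockout hearts in red and wild-type hearts in blue. Lower panel: log2 CPM minus the mean of 6 hearts for 9 members and 5 other sarcomere genes. Rows are ordered from the longest coding transcript at the top. Myh6 is low (-0.93 and -0.80) and Tnnc1 high (0.35 and 0.45) in knockout heart 2 and wild-type heart 3, whose slopes are -0.14 and -0.15. Against the length order, Acta1, of 1446 bases, is also low in these hearts (-1.86 and -0.79).

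The partners of these proteins in the thick filament showed no called difference either. Of 17 listed genes 9 were tested, 0 passed, 5 were higher and 4 lower, and their median log2 fold change was 0.01. The genes of the list with the smallest p were Myl1, a skeletal essential light chain (log2 fold change 0.32, SE 0.19), Mybpc2, the fast skeletal form of myosin-binding protein C (0.68, SE 0.41), and Myl7 (1.65, SE 1.004), each with an adjusted p of 1 in edgeR. The regulatory light chain of the ventricle, Myl2, stood at 5054, 11846 and 6751 CPM in knockout hearts and at 7438, 6088 and 11698.5 CPM in wild-type hearts. The fetal and atrial essential light chain Myl4 was 0.0137%, 0.00876% and 0.00965% of the ventricular Myl3 per kilobase of exon in knockout hearts and 0.00556%, 0.00867% and 0.00923% in wild-type hearts (exact permutation p = 0.20, adjusted p = 0.60). With coding transcripts as the length its means were 0.0241% in knockout and 0.0176% in wild type. Myl7 was 0.0610%, 0.00288% and 0.0167% of Myl2 in knockout hearts and 0.0127%, 0% and 0.00506% in wild-type hearts, and with 0 reads in wild-type heart 2 its log2 ratio was not tested.

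In the thin filament 13 of 15 listed partners were tested and 0 passed, with 7 higher, 6 lower and a median log2 fold change of 0.13. Tpm4, a tropomyosin of non-muscle cells, had the smallest p, with 141, 112 and 101 CPM in knockout hearts and 90.3, 79.8 and 96.0 CPM in wild-type hearts. All 3 knockout values lay above all 3 wild-type values, and the log2 fold change was 0.41 (SE 0.17, unadjusted p = 0.043, adjusted p = 1, edgeR quasi-likelihood fit across all genes). The groups did not overlap for 1 of the 13 tested, where 4.07% of all tested genes did not. An unadjusted p under 0.05 in edgeR was found for 1 of the 13 and for 1.23% of all tested genes. Tpm2, beta-tropomyosin, stood at 21.8, 14.5 and 17.8 CPM in knockout hearts and at 9.65, 11.9 and 16.5 CPM in wild-type hearts (log2 fold change 0.51, SE 0.24). It was 0.527% ± 0.143 of Tpm1 per kilobase of exon in knockout and 0.375% ± 0.1001 in wild type (SD, n = 3 each; exact permutation p = 0.20, adjusted p = 0.60). Tnnt1, slow skeletal troponin T, was 0.717% ± 0.0745 of Tnnt2 in knockout and 0.842% ± 0.0555 in wild type (SD, n = 3 each; exact permutation p = 0.20, adjusted p = 0.60). With coding transcripts as the length the means were 0.314% in knockout and 0.224% in wild type for Tpm2, and 0.231% in knockout and 0.271% in wild type for Tnnt1. Acta2, the smooth muscle actin that the fetal heart also makes, was 0.991% ± 0.0936 of Actc1 in knockout and 0.868% ± 0.400 in wild type (SD, n = 3 each; exact permutation p = 0.60). Smooth muscle markers, Acta2 among them, summed to 269, 189 and 260 CPM in knockout hearts and to 205, 164 and 253 CPM in wild-type hearts, and their part in the Tpm2 and Tpm4 values was not tested.

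Genes known to set the isoform balance, among them thyroid hormone receptors, MEF2, GATA4, SRF and TEAD1, gave no called difference. Of 24 listed genes 23 were tested, 0 passed, 18 were higher and 5 lower, and the median log2 fold change was 0.05. Over all tested genes 52.3% were higher. For 21 of the 23 the 95% interval excluded a 2-fold difference. Thra, the main thyroid hormone receptor of heart, had a log2 fold change of 0.05 (SE 0.14) and Thrb one of 0.03 (SE 0.16). The smallest p belonged to Dio2, the enzyme that activates thyroid hormone, with 1.35, 1.34 and 1.13 CPM in knockout hearts and 0.854, 0.852 and 1.04 CPM in wild-type hearts (log2 fold change 0.47, SE 0.24, adjusted p = 1, edgeR). These are near the floor, and the knockout values lay above the wild-type values. The groups did not overlap for 1 of the 23 tested, where 4.07% of all tested genes did not. Next by p was Med13, a mediator subunit that miR-208a targets, with a log2 fold change of 0.13 (SE 0.18). Mef2a followed at 0.10 (SE 0.14).

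Genes whose pattern over the 6 hearts was most like that of Myh7 were sought among 12399 genes of at least 1 CPM, by the mean absolute difference of centred log2 CPM. They were Map6 (0.0664), S1pr2 (0.0727), Vcam1 (0.0744) and Vsig10l (0.0764), against a median of 0.34 over those genes. For Acta1 they were Penk (0.30), Srpx (0.36), Ano5 (0.37) and Cdh4 (0.38), against a median of 0.95. Of these Vcam1 was the most abundant, at 18.4, 9.54 and 18.4 CPM in knockout hearts and 11.2, 13.05 and 10.03 CPM in wild-type hearts. This likeness is a description of 6 hearts, and no test was made.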

How the data were processed

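RNA from 6 hearts was purified on RNeasy columns and sequenced from NEBNext Ultra II libraries, per the labels' protocols. The authors deposited raw counts, 1 whole number for each Ensembl gene in each library. The submitters' processing notes list STAR, featureCounts, Subread 1.5.2, DESeq2 and GRCm38.p6, with no role stated. The release of the annotation, strandedness and the counting of multi-mapped reads were not given in the sources used here. Without strand, reads of Myh7 and its antisense genes cannot be told apart.

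Columns were matched to samples by title. Symbols matched 48970 of 49315 identifiers; exons and coordinates came from GENCODE M21 (GRCm38), promoters and microRNAs from RefSeq. Low genes were removed with filterByExpr (10 counts, 15 in total), libraries scaled by TMM, and genes tested, knockout over wild type, by edgeR 4.0.16 (quasi-likelihood F test, R 4.3.3), adjusted over 14508 genes by Benjamini-Hochberg at 0.05. Standard errors are the fold change over the root of F. Ratios used counts per kilobase of all annotated exons, with an exact two-sided permutation test over hearts (scipy 1.17.1) adjusted over the 9 of 10 ratios that could be tested. Alternatives were DESeq2 1.42.0, limma-voom (limma 3.58.1), other scalings and filters, a replicate block and left-out hearts. The code was tested on simulated data. No libraries were duplicates: the closest, knockout replicate 2 and wild-type replicate 3, had a chi-square over degrees of freedom of 7.77. Counting intervals cover counting error only, since reads carry no molecular identifiers.

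The members and all lists were chosen with earlier results of these data known. Named are Arrdc4, all members, all genes of the 10 ratios, the 3 genes of smallest p in each of 5 companion lists, and the 4 genes closest in pattern to Myh7 and to Acta1; the same search for Tnni1 is not given because it had 1 to 11 reads per library. Genes named outside this rule, such as Mhrt, the microRNA genes, Thra and Thrb, and those said in the text to be added, were chosen after their values were seen.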

Additional observations from a re-analysis of the deposited data

How the results depend on the processing

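No member passed the threshold under any of the 15 alternatives run. Over all genes 1 was called; with a replicate block 0 were, without knockout replicate 2 and wild-type replicate 3 the calls were 2, Arrdc4 and Spp1 (chosen after its value was seen), and leaving out 1 heart at a time gave 0 to 1, the 0 without knockout replicate 3. Deviations of same-numbered hearts had correlations of 0.18, -0.65 and -0.40, and those of knockout replicate 2 and wild-type replicate 3 one of 0.68. Because deviations were centred within each group of 3, this check cannot exclude a pairing by number. The block gave a log2 fold change of 0.17 for Myh6, 0.30 for Myh7 and -0.28 for Acta1.

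Leaving out 1 heart, or knockout replicate 2 with wild-type replicate 3, gave log2 fold changes of -0.17 to 0.59 for Myh6, 0.18 to 0.61 for Myh7, -0.16 to 0.40 for Myh7b, -0.061 to 0.16 for Actc1, -1.31 to 0.55 for Acta1, -0.29 to 0.13 for Tnni3, -0.18 to 0.040 for Tnnt2, -0.32 to 0.14 for Tnnc1 and -0.031 to 0.084 for Tpm1. Log2 ratio differences ran from -0.14 to 0.52 for Myh7 to Myh6, -0.63 to 0.41 for Myh7b to Myh6, -0.67 to 0.23 for Myh7b to Myh7, -1.21 to 0.22 for Acta1 to Actc1, -1.12 to 0.59 for Tnni1 to Tnni3 and -0.049 to 0.69 for Acta2 to Actc1, and kept their sign for Myl4 to Myl3 (0.23 to 0.73), Tnnt1 to Tnnt2 (-0.33 to -0.17) and Tpm2 to Tpm1 (0.28 to 0.86). Sums ran from -0.22 to 0.64 for the myosins, -0.085 to 0.15 for the actins and -0.27 to 0.11 for troponin I. List medians ran from -0.02 to 0.22 in the thick filament, -0.018 to 0.22 in the thin filament, -0.02 to 0.14 for regulators, -0.14 to 0.19 for thyroid-responsive and -0.29 to 0.07 for stress genes.

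With the length offset, chosen after seeing the data, Tpm1 turned to -0.022 and the thin filament median was 0.044; the cause was not tested. The coding-transcript length changes no difference between hearts but multiplies levels by 0.322 for Tnnt1 to Tnnt2, 0.596 for Tpm2 to Tpm1, 0.456 for Myl7 to Myl2 and 2.25 for Myl4 to Myl3. The factor is 1.26 for Myh7 to Myh6, 1.38 for Tnni1 to Tnni3, 0.778 for Myh7b to Myh7 and 0.967 for Acta1 to Actc1. It is 0.978 for Myh7b to Myh6 and 0.982 for Acta2 to Actc1. With that length Myh7 averaged 0.532% of Myh6 in knockout and 0.504% in wild type. Without a filter Tnni1 had a log2 fold change of 0.08 (SE 0.80).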

Other observations

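Genes that respond to thyroid hormone, which drives the myosin switch, gave no called difference. Of 13 listed genes 12 were tested, 0 passed the edgeR test, 6 were higher and 6 lower in knockout, and the median log2 fold change was -0.02, against 0.01 over all tested genes. Thrsp, a lipogenic gene induced by thyroid hormone, had the smallest p, with 16.0, 21.9 and 15.4 CPM in knockout hearts and 22.1, 30.7 and 25.0 CPM in wild-type hearts. All 3 knockout values lay below all 3 wild-type values (log2 fold change -0.55, SE 0.20, unadjusted p = 0.027, adjusted p = 1, edgeR quasi-likelihood fit across all genes). Adrb1, the beta-1 adrenergic receptor, stood at 27.0 ± 3.402 CPM in knockout and 22.7 ± 0.462 CPM in wild type (SD, n = 3 each), with a log2 fold change of 0.25 (SE 0.14), and Hcn2, a pacemaker channel, had one of -0.46 (SE 0.26). The groups did not overlap for 2 of the 12 genes, Thrsp and Adrb1, where 4.07% of all tested genes did not. An unadjusted p under 0.05 in edgeR was found for 1 of the 12 and for 1.23% of all tested genes. The calcium pump Atp2a2 had a log2 fold change of 0.10 (SE 0.21) and its inhibitor Pln one of -0.08 (SE 0.28).

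Genes of cardiac stress other than Acta1 and Myh7 did not all share the pattern of Acta1. All 7 listed were tested, 0 passed, 3 were higher and 4 lower, and the median log2 fold change was -0.17. Ankrd1, a stretch-responsive protein, was highest in the hearts highest in Acta1, at 809, 410 and 421 CPM in knockout hearts and 503, 963 and 383 CPM in wild-type hearts. Xirp2 was also highest in knockout heart 1 and wild-type heart 2, and lowest in knockout heart 2 and wild-type heart 3, as Acta1 was. Its values were 545, 302 and 452 CPM in knockout hearts and 354, 516 and 305 CPM in wild-type hearts. Nppb, which encodes brain natriuretic peptide, was instead high in the hearts low in Acta1, at 156, 302 and 33.3 CPM in knockout hearts and 200, 102 and 350 CPM in wild-type hearts (log2 fold change -0.41, SE 0.74). Csrp3 was likewise highest in the hearts low in Acta1, at 2046 CPM in knockout heart 2 and 2191 CPM in wild-type heart 3. Nppa, which encodes the atrial peptide, stood at 123, 65.7 and 58.2 CPM in knockout hearts and at 90.6, 127 and 81.7 CPM in wild-type hearts, and Fhl1 had the smallest p of the list at a log2 fold change of 0.20 (SE 0.17). Ankrd1, Xirp2, Csrp3, Atp2a2 and Pln were chosen after their values were seen.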
